A study of Mus musculus with 12 samples.

Results

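The genes described here are 10 that handle calcium at the sarcoplasmic reticulum of heart muscle: Atp2a2, Pln and Sln (the calcium pump and its small inhibitors), Ryr2 and Trdn (the release channel and its anchor), Casq2, Casq1 and Hrc (calcium binding proteins of the store), Cacna1c (the channel that triggers release) and Slc8a1 (the exchanger that removes calcium from the cell). They were taken by name, as the rows of the deposited table that carry these symbols, with no threshold on a measured value. All 10 were among the 43686 rows of the table, and 9 of them, all but Sln, had enough reads to be among the 17155 rows tested. RNA from the ventricular wall of 6 WT and 6 KO mice was sequenced to ask what the loss of Sdhaf4, an assembly factor of mitochondrial complex II, does to cardiac transcripts. The labels give strain C57BL/6 and an age of 2 months for both groups, and the text of the study gives more than 1 age. All animals carried floxed Sdhaf4 alleles (Sdhaf4 fl/fl). WT mice had no Cre, and KO mice, which the labels call Sdhaf4-/-, carried Ckmm-Cre, which is driven by the muscle creatine kinase promoter and acts in skeletal as well as cardiac muscle. By design the deletion is in muscle cells and not in the other cells of the ventricle. The 6 samples of a group are replicates by their labels, and where they did not come from separate hearts the p-values measure only the spread between these samples.

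At each heartbeat, calcium that enters through L-type channels in the surface membrane opens ryanodine receptors in the facing membrane of the sarcoplasmic reticulum, and the calcium released from this store drives contraction. Relaxation follows when the SERCA pump returns calcium to the store and the sodium-calcium exchanger moves the rest out of the cell. Phospholamban and sarcolipin slow the pump, while calsequestrin and the histidine-rich calcium binding protein hold calcium inside the store. In failing hearts of many origins this cycle is known to be altered.

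Sdhaf4 itself was measured at 25.2 ± 5.80 CPM (read counts scaled to library size by TMM; SD, n = 6) in WT and 2.40 ± 0.170 CPM in KO, a log2 fold change of -3.39 (SE 0.16, adjusted p = 1.96e-10), and no KO library reached the lowest WT library at 14.3 CPM. Library totals were 23747014 to 27159228 counts in WT and 26542930 to 31393393 in KO. The labelled tissue carried cardiomyocyte markers in quantity, with a summed level of 46428 to 51028 CPM in WT and 41403 to 55618 CPM in KO over the 9 of 10 listed genes that have a row, of which 2 were higher and 3 lower. Of 7 atrial markers, Myl7 and Bmp10 stayed under 1 CPM in every library, and of the 5 tested Nppa (log2 fold change 5.65), Dkk3 (3.21) and Myl4 (0.72) were higher in KO and Kcnj3 and Stard10 were lower. Their summed level, mostly Nppa, was 245 to 505 CPM in WT and 7458 to 15704 CPM in KO. Fibroblast markers were higher in KO for 7 of 7 genes, with a summed level of 1378 to 1611 CPM in WT and 2289 to 4233 CPM in KO. Endothelial markers (3 higher and 1 lower of 6), macrophage markers (0 and 2 of 6), smooth muscle markers (1 and 2 of 5) and conduction markers (2 and 1 of 4 tested) moved less uniformly. The part of these shifts in the results below was not tested, and in bulk tissue fewer cells of a type and less RNA per cell cannot be told apart. A KO library, replicate 3, had the largest total and stood apart for many of the genes described here, so its values are given beside each result that turns on them.

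The transcripts of the members fell in KO more often than they rose, unlike those of the wider calcium lists described below. Of the 9 members tested, 7 were lower in KO (Hrc, Atp2a2, Casq1, Pln, Ryr2, Trdn and Cacna1c) and 2 were higher (Slc8a1 and Casq2), with a threshold of 0.05 on the adjusted p of the edgeR fit. Among all rows tested, 25.5% were lower and 25.6% were higher by the same rule, 51.1% in either direction. The median log2 fold change was -0.50 over the 9 members and 0.00 over all rows. For 6 of the 9 members the KO libraries all lay on 1 side of all WT libraries, which was so for 30.1% of all rows. At the stricter threshold of the study, an adjusted p under 0.005 with a fold change over 2, Hrc (lower) and Slc8a1 (higher) passed, beside 4.87% of all rows lower and 5.36% higher (10.2% in either direction). Without KO replicate 3 the counts were 7 lower and 2 higher, and the calls of Trdn and Cacna1c were the ones that depended on single libraries.

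**Figure D1:**
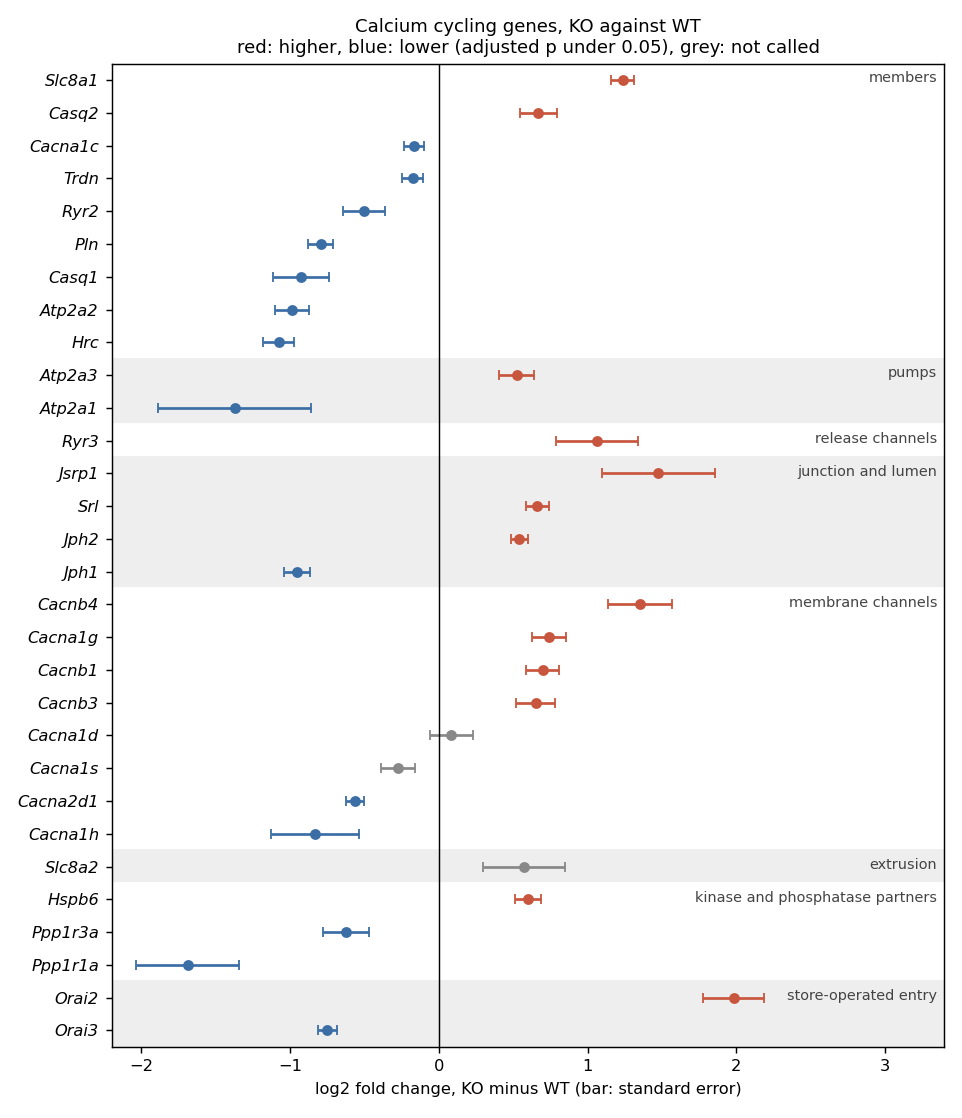
Log2 fold changes (KO minus WT, x axis) with standard errors from the fit over all 12 libraries, for the 9 members tested and for the genes of the wider calcium lists that the text names, in shaded blocks by role. Among the members Slc8a1 (1.24) and Casq2 (0.67) lie to the right of 0 and Hrc (-1.08) lies farthest to the left.

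Promoter sequences of 4 members are shown, because these genes include the largest fall (Hrc), the main inhibitor of the pump (Pln) and both rises (Casq2 and Slc8a1). RefSeq promoters on GRCm38.p6, from 250 bases before to 50 bases after the transcription start, matched 7 of the 10 members in 9 windows, and no entry was found for Atp2a2, Trdn and Sln. Each window is written 5′ to 3′ on the strand of its gene, and capitals mark matches to 7 short motifs, spelled out after the windows, which were searched on both strands. No marked match overlaps another.
Hrc, chr7:45335019-45335318, plus strand: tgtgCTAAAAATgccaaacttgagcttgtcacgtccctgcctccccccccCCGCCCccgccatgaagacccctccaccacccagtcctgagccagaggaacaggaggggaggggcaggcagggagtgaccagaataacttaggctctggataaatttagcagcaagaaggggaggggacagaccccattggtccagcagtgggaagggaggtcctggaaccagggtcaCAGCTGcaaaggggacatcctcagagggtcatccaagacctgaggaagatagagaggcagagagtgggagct
Pln, chr10:53337436-53337735, plus strand: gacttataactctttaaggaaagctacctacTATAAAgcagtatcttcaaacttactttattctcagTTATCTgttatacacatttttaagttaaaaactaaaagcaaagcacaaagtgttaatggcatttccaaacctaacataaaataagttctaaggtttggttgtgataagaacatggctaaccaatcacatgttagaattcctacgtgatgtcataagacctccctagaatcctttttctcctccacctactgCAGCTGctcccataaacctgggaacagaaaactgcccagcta
Casq2, chr3:102086165-102086464, plus strand: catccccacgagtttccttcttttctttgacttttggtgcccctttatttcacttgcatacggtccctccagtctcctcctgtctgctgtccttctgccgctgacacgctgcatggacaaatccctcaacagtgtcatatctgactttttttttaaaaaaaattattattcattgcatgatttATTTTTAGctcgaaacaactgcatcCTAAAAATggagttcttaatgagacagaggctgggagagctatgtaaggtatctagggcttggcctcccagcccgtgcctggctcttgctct
Slc8a1, chr17:81738338-81738637, minus strand: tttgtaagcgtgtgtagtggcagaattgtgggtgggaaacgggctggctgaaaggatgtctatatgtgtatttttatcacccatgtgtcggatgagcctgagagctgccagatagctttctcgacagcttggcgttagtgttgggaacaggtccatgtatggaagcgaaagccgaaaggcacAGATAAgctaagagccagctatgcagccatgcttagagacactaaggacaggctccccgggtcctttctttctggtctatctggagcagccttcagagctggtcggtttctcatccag
The MEF2-like letters (CTAAAAAT) were present in 1.11% of all 32851 promoters and in 2 of the 7 members, Hrc (at position -246 from the start) and Casq2 (at -67 on the reverse strand and at -42). The E-box letters (CAGCTG, the same on both strands) stood in the windows of Hrc (-22), Pln (8) and 2 other members, against 16.3% of all promoters. GATA letters (AGATAA) were found for Pln (-183, reverse strand) and Slc8a1 (-68), against 11.2% of all promoters, and the TATA box letters (TATAAA) were found for Pln (-219) alone among the members, against 13.6%. GC box letters (GGGCGG) were found for 4 members, Hrc (-200, reverse strand) among them, against 35.7% of all promoters. The M-CAT letters (CATTCC), present in 14.7% of promoters, were in none of the 7, and the nuclear receptor letters (AGGTCA), present in 16.3%, were in 1 of them, Ryr2. The windows of Hrc and Casq2, which moved in opposite directions, thus both hold the MEF2-like letters. The share of all promoters is counted per window, whereas a member was counted once if any of its windows matched. Cacna1c had more than 1 window, so the member counts and these shares are not strictly alike. Matches of this kind describe the letters and do not show a bound site.

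Atp2a2 encodes SERCA2, the pump that refills the store (MGP_C57BL6NJ_G0030482, chromosome 5, 130936258 to 130986404, minus strand, on the C57BL/6NJ assembly, as are all gene positions here). Its level was 9871 CPM in the lowest, 11367 in the median and 11673 in the highest WT library, and 4521, 5225 and 7965 CPM in KO. Every KO library was below every WT library, and the highest KO value was that of replicate 3, while the other 5 lay between 4521 and 5640 CPM. The fold change was -0.99 on the log2 scale (SE 0.12, adjusted p = 2.38e-06), or 1.98-fold lower in KO, and -1.13 without KO replicate 3. An unnamed row on the opposite strand lies inside the gene and took 88.9 CPM in WT and 51.2 CPM in KO, which is small beside Atp2a2.

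Pln encodes phospholamban, which inhibits SERCA2 until it is phosphorylated (MGP_C57BL6NJ_G0017625, chromosome 10, 54165922 to 54174139, plus strand; promoter shown above). The level was 5370.3, 5694 and 5974 CPM (lowest, median and highest) in WT and 2828, 3197 and 4096 CPM in KO. The groups did not overlap, and WT libraries were close together, with a coefficient of variation (CV) of 4.20%. Pln was 1.73-fold lower in KO (log2 fold change -0.79, SE 0.08, adjusted p = 5.91e-07). The gene lies within the span of Cep85l on the other strand, a row at 18.8 CPM in WT and 13.2 CPM in KO.

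Sln encodes sarcolipin, the pump inhibitor of atria and of skeletal muscle (MGP_C57BL6NJ_G0035309, chromosome 9, 54382560 to 54386153, plus strand). It had 6 reads in WT replicate 1, 1 read in WT replicate 2, 1 read in KO replicate 4 and 0 reads in the other 9 libraries. The 6 reads correspond to 0.253 CPM. A count of 0 allows a level of up to 3 counts, for counting error only, which is 0.0963 to 0.121 CPM in the libraries with 0 reads. A difference between WT and KO was not detectable at this depth.

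**Figure D2:**
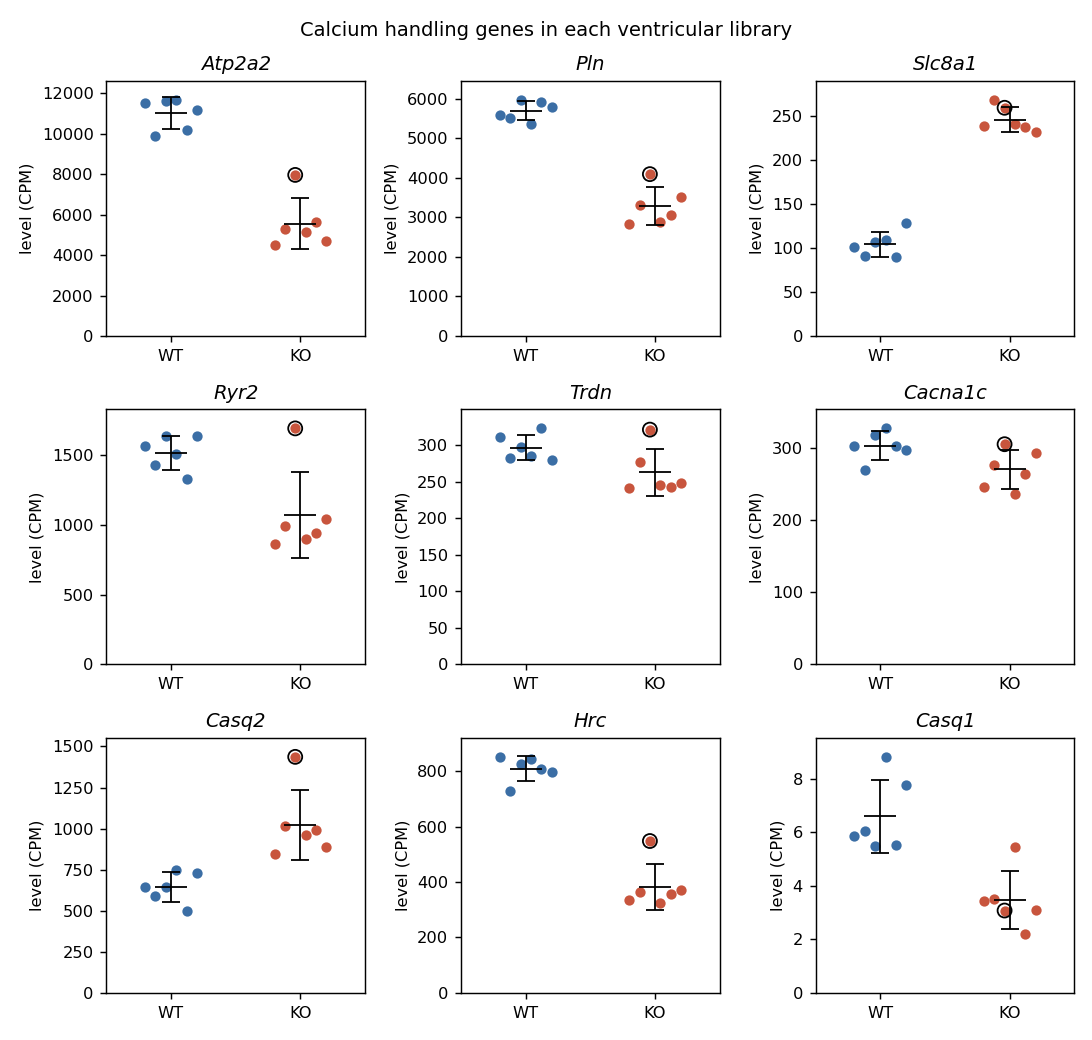
Level of each tested member (CPM, linear y axis from 0) in the 6 WT and 6 KO libraries, with the group mean and SD as horizontal line and bar; the ringed point is KO replicate 3. The groups are apart for Atp2a2, Pln, Slc8a1, Casq2, Hrc and Casq1, and they overlap for Ryr2, Trdn and Cacna1c.

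Ryr2 encodes the cardiac ryanodine receptor, the channel through which the store releases calcium (MGP_C57BL6NJ_G0020613, chromosome 13, 8655293 to 9252011, minus strand). Its level was 1328, 1535 and 1638 CPM (lowest, median and highest) in WT and 862, 968 and 1690.1 CPM in KO. The groups overlapped through KO replicate 3 alone, which was above every WT library, whereas the other 5 KO libraries lay between 862 and 1039 CPM. Ryr2 was lower in KO by a log2 fold change of -0.50 (SE 0.14, adjusted p = 0.00935) with all libraries and of -0.69 (adjusted p = 2.04e-07) without KO replicate 3. The call held in each of the 12 fits that left out 1 library.

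Trdn encodes triadin, which tethers calsequestrin to the release channel (MGP_C57BL6NJ_G0017523, chromosome 10, 32320108 to 32732093, plus strand). The values were 280.01, 291 and 323 CPM in WT and 241, 247 and 321 CPM in KO, and replicate 3 was again the highest KO library. The shift was small, a log2 fold change of -0.17 (SE 0.07, adjusted p = 0.0466), and the call was kept in 5 of the 12 fits with 1 library left out. It was lost without WT replicate 1, 3 or 5 or KO replicate 1, 4, 5 or 6 (adjusted p = 0.0649 to 0.107). It was also lost (log2 fold change -0.12, adjusted p = 0.168) when libraries were scaled to the cardiomyocyte markers.

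Casq2 encodes cardiac calsequestrin, the main calcium buffer of the store (MGP_C57BL6NJ_G0028095, chromosome 3, 107108481 to 107174929, plus strand; promoter shown above). It was measured at 501, 645 and 748 CPM in WT and at 846, 976 and 1437 CPM in KO. All KO libraries were above all WT libraries, opposite in direction to the channel it serves. The rise was 1.59-fold (log2 fold change 0.67, SE 0.13, adjusted p = 0.000455), with KO replicate 3 the highest and the other 5 KO libraries at 846 to 1015 CPM. Without that library the log2 fold change was 0.54 (adjusted p = 0.0001).

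Casq1 encodes the calsequestrin of skeletal muscle (MGP_C57BL6NJ_G0017183, chromosome 1, 183975783 to 183987256, minus strand) and was scarce in these ventricles. Its level was 5.50, 5.97 and 8.82 CPM in WT and 2.21, 3.27 and 5.46 CPM in KO. The groups were adjacent without overlap, and KO replicate 4 was the highest KO library. The log2 fold change was -0.93 (SE 0.19, adjusted p = 0.000534). The summed level of 10 skeletal muscle markers, mostly Mybpc2 (mean 16.1 CPM in WT and 4.88 CPM in KO), moved with it. The sum ran from 12.7 to 33.5 CPM in WT and from 5.13 to 11.2 CPM in KO. Of these markers 4 could be tested and 3 were lower, while Tnnt3 was not called (log2 fold change 0.66, adjusted p = 0.373). Myh1, Myh2 and Actn3 were under 1 CPM in every library. Their part in the fall of Casq1 was not tested.

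Hrc encodes the histidine-rich calcium binding protein of the store lumen (MGP_C57BL6NJ_G0032697, chromosome 7, 47849535 to 47853165, plus strand; promoter shown above). The lowest, median and highest values were 728, 816 and 852 CPM in WT and 325, 360.2 and 548 CPM in KO. KO libraries other than replicate 3 lay within 325 to 371 CPM, well below the lowest WT library, as did replicate 3 at 548 CPM. Hrc was 2.11-fold lower in KO (log2 fold change -1.08, SE 0.11, adjusted p = 6.79e-07), the largest fall among the members. Among the members that bind calcium in the lumen, Casq2 thus rose while Casq1 and Hrc fell.

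Cacna1c encodes the pore of the cardiac L-type channel (MGP_C57BL6NJ_G0031627, chromosome 6, 124468294 to 125101985, minus strand). Its values were 269, 303 and 328 CPM in WT and 237, 270.5 and 306 CPM in KO, and the groups overlapped. The log2 fold change was -0.17 (SE 0.07, adjusted p = 0.0463). The call was kept in 3 of the 12 fits with 1 library left out and lost without WT replicate 1, 3, 4, 5 or 6 or KO replicate 1, 2, 4 or 5 (adjusted p = 0.0553 to 0.109). The value was -0.11 (adjusted p = 0.166) with scaling to the cardiomyocyte markers.

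Slc8a1 encodes NCX1, the sodium-calcium exchanger of the surface membrane (MGP_C57BL6NJ_G0024473, chromosome 17, 87395243 to 87679989, minus strand; promoter shown above). It stood at 90.3, 104 and 129 CPM in WT and at 232, 239.6 and 268 CPM in KO. The lowest KO library was far above the highest WT library, and KO replicate 3, at 259 CPM, was not set apart from the others. The rise was 2.35-fold (log2 fold change 1.24, SE 0.08, adjusted p = 1.55e-09), and it was between 1.19 and 1.30 on the log2 scale whichever library was left out. Hence the genes of the pump (Atp2a2) and of its inhibitor (Pln) fell in the same libraries in which the exchanger gene (Slc8a1) rose.

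With all libraries the spread was wider in KO for 8 of the 9 members, and without KO replicate 3 it was wider for 5 of 9. The CV of Atp2a2 was 7.16% in WT and 22.5% in KO, that of Ryr2 was 8.03% and 29.0%, and that of Hrc was 5.53% and 21.5%. Without that library the KO values were 8.91%, 7.54% and 5.41%, so the last 2 were below those of WT. Slc8a1 had a CV of 13.6% in WT and 5.88% in KO, and of 5.92% in KO without that library. KO replicate 3 was the highest KO library for 7 of the 9 members, among which Casq2 was the only gene that rose. For Slc8a1, which also rose, KO replicate 2 was the highest (268 CPM), and for Casq1 it was KO replicate 4. How often KO replicate 3 was the highest over all rows was not examined. The trait was not particular to the members. KO replicate 3 was also the highest KO library for the cardiomyocyte markers Myh6, Myl2, Myl3, Tnnc1, Mybpc3, Ttn and Tcap, but not for Tnnt2 and Tnni3. The scale factor from all listed cardiomyocyte markers was 1.13 in KO replicate 3 and 0.879 to 1.02 in the other KO libraries. In this library Myh6, the main myosin heavy chain of the adult mouse ventricle, was at 18614 CPM, above the WT range of 14620.3 to 18317 CPM, and Nppa, a gene of cardiac stress, was at 7393 CPM, the lowest of the KO libraries (7393 to 15641 CPM) and above the WT range of 156 to 408 CPM. Its Sdhaf4 level, 2.25 CPM, was the lowest of the KO libraries (2.25 to 2.73 CPM).

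Levels of different genes can be set beside each other only per transcript length, for which the deposited FPKM values were used. In WT the order was Atp2a2 (4197 FPKM), Pln (2356), Casq2 (452), Hrc (343), Ryr2 (91.3), Trdn (86.7), Cacna1c (47.4), Slc8a1 (36.0) and Casq1 (5.94), with Sln last at 0.0937 FPKM. Neighbours did not separate for Ryr2 and Trdn, whose WT libraries spanned 78.2 to 101 and 82.4 to 92.5 FPKM, for Casq2 and Hrc (344 to 528 and 315 to 360.2 FPKM), and for Cacna1c and Slc8a1 (42.9 to 50.6 and 30.5 to 45.6 FPKM). In KO the exchanger moved from the eighth place to the fifth, at 84.8 FPKM, beside Trdn (76.8) and Ryr2 (64.1), whose libraries overlapped with it. The FPKM rest on gene lengths that are shorter than the length column of the table for 64.3% of rows. With that column 3 pairs turn in WT, with Pln (2296 CPM per kilobase) above Atp2a2 (2122), Hrc (343) above Casq2 (252) and Slc8a1 (35.9) above Cacna1c (23.0), so that the exchanger starts from the seventh place. Comparisons of the same gene between groups are not affected by the length.

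**Figure D3:**
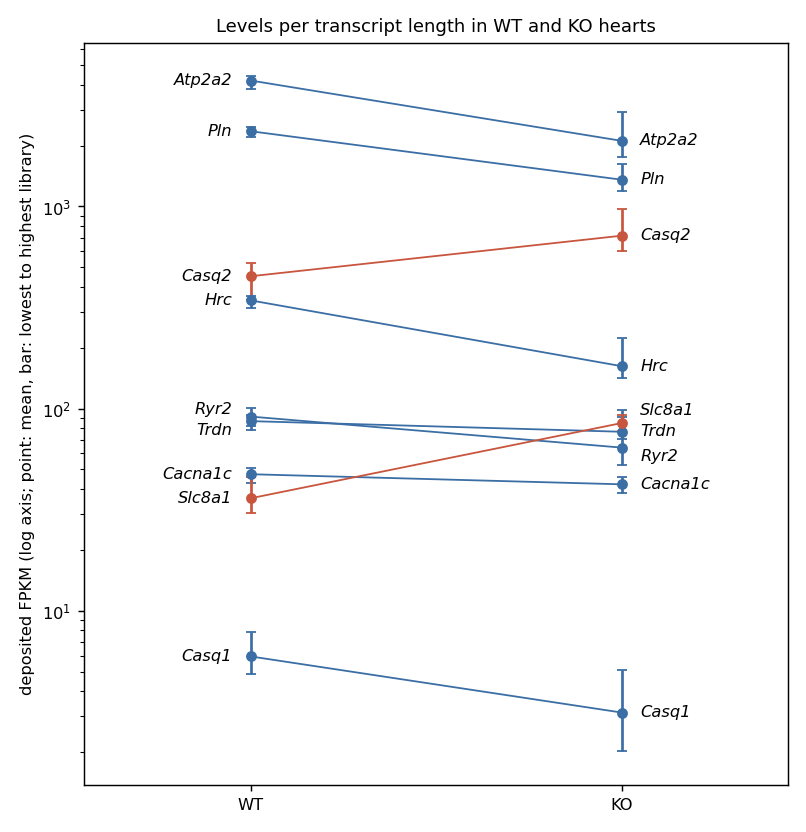
Deposited FPKM (log axis) of the 9 tested members in WT and KO; points are means of 6 libraries, bars run from the lowest to the highest library, and red and blue lines mark genes called higher and lower in KO. Slc8a1 rises from 36.0 to 84.8 FPKM and crosses Trdn and Ryr2 (and, with these lengths, Cacna1c), while Atp2a2 and Pln keep the top places in both groups.

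Each family was dominated by its cardiac member in both groups. Atp2a2 made up 99.8% ± 0.0266 (SD, n = 6) of the summed FPKM of the 3 SERCA genes in WT and 99.5% ± 0.139 in KO, and Ryr2 made up 99.7% ± 0.111 and 99.1% ± 0.339 of the ryanodine receptors. The remainder was mostly Atp2a3, the pump of non-muscle cells, at 0.175% in WT and 0.516% in KO, and Ryr3, at 0.290% and 0.904%. Casq2 held 98.7% of the calsequestrin signal in WT and 99.6% in KO, with Casq1 at 1.30% ± 0.152 and 0.448% ± 0.165. Slc8a1 held 99.2% and 99.5% of the exchanger family. The summed level of the SERCA genes was 4205 ± 294 FPKM in WT and 2123 ± 432 in KO, and that of the ryanodine receptors was 91.6 ± 8.12 and 64.7 ± 16.8 FPKM.

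Ratios of partner transcripts within a library do not depend on how libraries are scaled, and 6 of them were compared with an exact two-sided permutation test over the libraries, for which 0.00216 is the smallest p with 6 against 6. Slc8a1 relative to Atp2a2 had a median of 0.00834 in WT (0.00789 to 0.0104) and of 0.0434 in KO (0.0294 to 0.0476). This ratio of exchanger to pump transcripts differed by 4.78-fold without overlap of the groups (log2 difference 2.26, exact permutation p = 0.00216, adjusted over the 6 ratios p = 0.00433). Slc8a1 was higher and Atp2a2 lower in every KO library than in every WT library. The separation and the p of this ratio follow from that and add no further support. Calcium removal and return were not measured. Casq2 relative to Ryr2 had a median of 4.81 in WT (4.40 to 5.80) and of 11.7 in KO (9.92 to 12.5), a log2 difference of 1.20, and here KO replicate 3, at 9.92, lay with the other KO libraries. Casq1 relative to Casq2 was 3.06-fold lower in KO (log2 difference -1.62). Both genes were apart between the groups in CPM and moved in opposite directions, so this ratio adds little to their own results. The last 2 ratios had the same exact permutation p as the exchanger ratio, and none of the 3 overlapped between groups.

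The ratio of Pln to Atp2a2, inhibitor to pump, had a median of 0.560 in WT (0.499 to 0.632) and of 0.644 in KO (0.558 to 0.808). The groups overlapped and the log2 difference of 0.21 did not pass the test (exact permutation p = 0.0519, adjusted p = 0.0519). It passed when WT replicate 2 (0.23, adjusted exact permutation p = 0.0476), WT replicate 5 (0.24, adjusted p = 0.0346) or KO replicate 3 (0.25, adjusted p = 0.0217) was left out. Trdn relative to Ryr2 had a median of 0.941 in WT (0.833 to 1.18) and of 1.29 in KO, and KO replicates 3 (0.925) and 6 (1.16) lay within the WT range. Cacna1c relative to Ryr2 had a median of 0.504 in WT (0.473 to 0.594) and of 0.726 in KO, and KO replicate 3 (0.469) lay below the WT range while the other 5 lay above it. These ratios were higher in KO by 0.36 and 0.37 on the log2 scale, each with an exact permutation p of 0.0173 and an adjusted p of 0.0208. A ratio of Sln to Atp2a2 could not be given, since Sln was at 0 in most libraries.

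**Figure D4:**
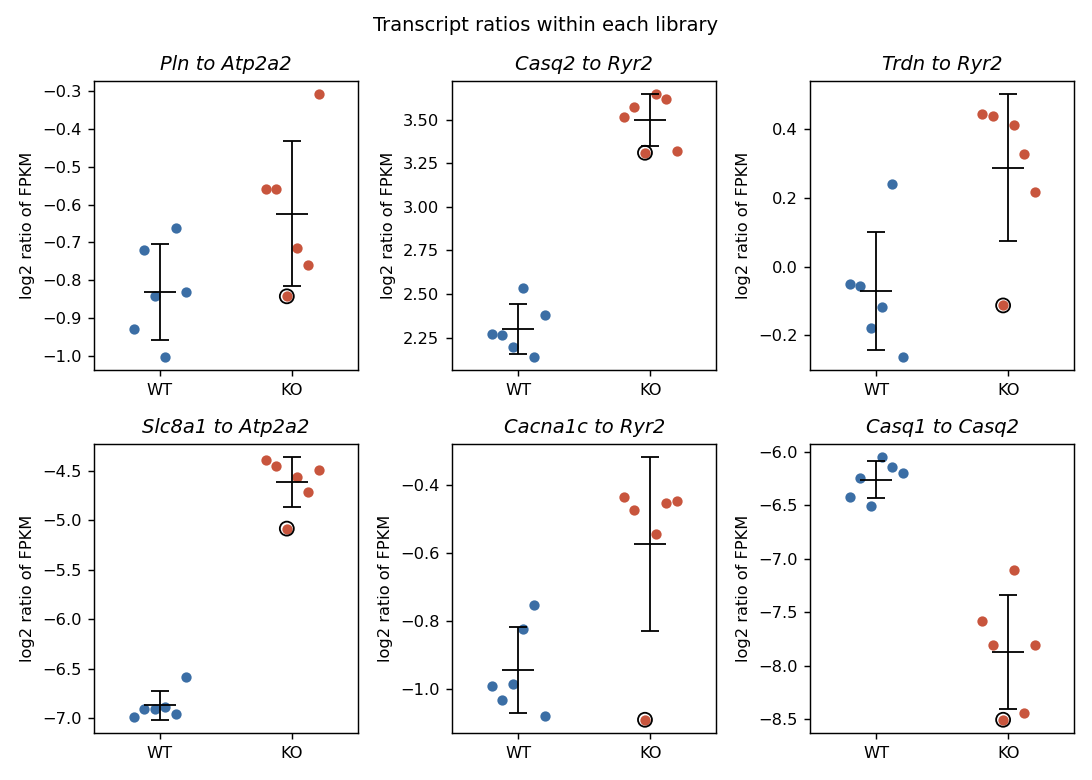
Log2 ratio of FPKM for 6 pairs of partner genes in the 6 WT and 6 KO libraries, with mean and SD; the y axes differ between panels and do not start at 0, and the ringed point is KO replicate 3. Slc8a1 to Atp2a2, Casq2 to Ryr2 and Casq1 to Casq2 separate the groups, and the other panels overlap.

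The wider calcium system was described from lists of 59 further genes, of which 56 had a row and 50 were tested. The picture differed from that of the members: 27 (54%) were higher and 9 (18%) lower in KO, with a median log2 fold change of 0.21, beside 25.6% and 25.5% and a median of 0.00 over all rows. Groups did not overlap for 21 of the 50 (42%, against 30.1% of all rows), and without KO replicate 3 the counts were 25 higher and 8 lower. Strit1, Mrln and Erln, small regulators of the pump, were not analysed here. By role the counts of genes higher and lower were 10 and 0 of 12 for release channels and their regulators, 5 and 3 of 10 for junction and lumen proteins, 5 and 2 of 10 for surface channels and their subunits, 2 and 0 of 3 for extrusion, 2 and 2 of 6 for kinase and phosphatase partners, 1 and 1 of 4 for pumps, and 2 and 1 of 5 for store-operated entry.

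While Ryr2 fell, 10 of the 12 tested genes in the list of other release channels and regulators rose, against 25.6% of all rows, and none fell. Ryr3, a minor ryanodine receptor, was higher in KO (2.02 ± 0.776 CPM in WT, 4.22 ± 1.35 in KO, n = 6; log2 fold change 1.06, SE 0.27, adjusted p = 0.00386), although its span overlaps Aven on the other strand. Other rises in this list are named here after their values were seen: Calm2 and Calm3, which encode a calcium sensor, the channel stabilizer Fkbp1a, sorcin (Sri), S100a1, the kinase gene Camk2d, and the inositol trisphosphate receptors Itpr1 and Itpr3. The log2 fold changes of these named genes ran from 0.17 (Itpr1) to 0.49 (Calm2), and the groups did not overlap for 8 of the 12 genes tested, against 30.1% of all rows. S100a1, a calcium sensor that acts on the pump and the release channel, rose from 543 ± 35.7 to 706 ± 19.2 CPM (adjusted p = 1.28e-05). Fkbp1b, which encodes calstabin 2, was at 0.638 CPM in WT and 1.12 CPM in KO and did not pass (adjusted p = 0.0519). Ryr1, the skeletal muscle channel, was under 1 CPM (0.110 in WT, 0.155 in KO) and was not tested.

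The genes that build the junction between surface membrane and store went both ways. Jph2, the main junctophilin of the heart, rose from 344 ± 24.7 to 500.3 ± 22.1 CPM (log2 fold change 0.54, adjusted p = 4.11e-07), whereas Jph1 fell from 45.8 ± 3.32 to 23.7 ± 3.54 CPM (-0.95, adjusted p = 1.17e-07). Srl, which encodes the lumenal protein sarcalumenin, rose from 778 ± 102 to 1232 ± 69.8 CPM (0.66, adjusted p = 2.37e-06). None of these 3 genes overlapped between groups. Among genes of abundant lumenal proteins Casq2 and Srl were thus higher and Hrc was lower. Calr, which encodes calreticulin, was not called (164 CPM in WT, 150 CPM in KO, log2 fold change -0.13, adjusted p = 0.153). Jsrp1 was called higher at a log2 fold change of 1.48 (adjusted p = 0.00355), but from a level of 0.258 CPM in WT and 0.718 CPM in KO.

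Among the surface channels, the pore gene Cacna1c had a log2 fold change of -0.17. Subunits were named by a rule that asks for a change of over 0.5, so their larger values follow from that rule. Cacnb2, the beta subunit gene with the highest level here, did not meet it. It went from 36.6 ± 2.84 to 43.1 ± 5.59 CPM (log2 fold change 0.23, adjusted p = 0.0216). Cacna2d1, the main alpha-2-delta subunit of the heart, fell from 237 ± 12.6 to 160.0 ± 15.0 CPM (log2 fold change -0.56, adjusted p = 7.44e-07). The beta subunit genes Cacnb1 (0.70, adjusted p = 5.2e-05), Cacnb3 (0.65, adjusted p = 0.000493) and Cacnb4 (1.35, adjusted p = 5.7e-05) rose, each from under 10 CPM in WT. The T-type channel gene Cacna1g rose from 11.4 ± 0.312 to 19.0 ± 4.08 CPM (0.74, adjusted p = 3.93e-05). Cacna1h was called lower (-0.83, adjusted p = 0.0340), and that call was lost without WT replicate 4 or KO replicate 1, 2, 3, 5 or 6 (adjusted p = 0.0526 to 0.0726). Without WT replicate 6, which held 36.1 CPM, its value was -0.50 (adjusted p = 0.0282). The other L-type pores did not pass, with Cacna1d at 0.08 (adjusted p = 0.659) and Cacna1s at -0.27 (adjusted p = 0.0568).

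Of the other pumps, Atp2a3 rose from 25.1 ± 2.71 to 36.0 ± 7.17 CPM (log2 fold change 0.52, adjusted p = 0.00155). Atp2a1, the pump of fast skeletal muscle, was called lower (-1.37, adjusted p = 0.0354), but WT replicate 1 held 2.79 CPM against 0.323 to 0.913 CPM in the other WT libraries. Without that library the value was -0.71 (adjusted p = 0.179), and the call was also lost without WT replicate 4 or KO replicate 1, 2, 3 or 5 (adjusted p = 0.05001 to 0.0741). In the exchanger family Slc8a2 did not pass (0.58, adjusted p = 0.0921) and Slc8a3 was under 1 CPM (0.0652 in WT, 0.0562 in KO) and was not tested.

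Protein kinase A and protein phosphatase 1 are among the enzymes that act on the phosphorylation of phospholamban, and several of their partners moved. The phosphatase genes Ppp1ca (log2 fold change -0.08, adjusted p = 0.150) and Ppp1cb (0.10, adjusted p = 0.110) were not called. The kinase gene Prkaca was called higher (0.17, adjusted p = 0.0445), a call kept in 4 of the 12 fits with 1 library left out. Ppp1r1a, which encodes an inhibitor of the phosphatase, fell from 1.89 ± 0.403 to 0.586 ± 0.393 CPM (log2 fold change -1.69, adjusted p = 0.0006). Ppp1r3a, its targeting subunit, fell from 181 ± 10.1 to 118 ± 36.3 CPM (-0.62, adjusted p = 0.00466), with KO replicate 3 at 188 CPM against 89.2 to 124 CPM in the others. Hspb6, a small heat shock protein that acts on the phosphatase, rose from 437 ± 41.1 to 662 ± 93.0 CPM (0.60, adjusted p = 2.89e-05), and its row overlaps Proser3 on the other strand. In the store-operated entry list, the channel genes Orai2 (1.49 ± 0.424 to 5.88 ± 1.35 CPM, log2 fold change 1.98, adjusted p = 4.78e-07) and Orai3 (26.9 ± 2.25 to 16.0 ± 0.610 CPM, -0.75, adjusted p = 7.06e-08) went in opposite directions without overlap of the groups.

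The genes nearest in pattern to the pump, its inhibitor and the release channel were found among 8817 annotated rows of at least 10 CPM, by the root mean square (RMS) difference of centred log2 CPM over the 12 libraries. For Atp2a2 the nearest was Hrc (0.0991), another member, followed by Slc25a42 (0.105), a mitochondrial carrier gene, and Fyco1 (0.105). For Pln they were Acadm (0.0628), an enzyme of fatty acid oxidation, Mccc1 (0.0680) and Mgst3 (0.0768). For Ryr2 they were Acat1 (0.112), Ccdc141 (0.121) and Tmem218 (0.127). Acat1, an enzyme of ketone and isoleucine metabolism, had 830.1 CPM in KO replicate 3 and a KO mean of 575 CPM, so it shared with Ryr2 the high value of that library. This measure describes likeness over 12 libraries of 2 groups, so the difference between the groups is part of it. For Sln no neighbour could be given.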

How the data were processed

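RNA was taken from the ventricular wall of 6 WT and 6 KO mice and sequenced as poly-A mRNA libraries (Illumina TruSeq). The authors mapped the reads (HISAT2 2.0.5 and mm10 are named in the submitters' processing notes, and the table carries C57BL/6NJ identifiers and positions) and deposited raw read counts per gene from HTSeq. No source states whether strand was used in counting, so rows that overlap another gene are uncertain. Per-library FPKM were also deposited by the authors, whose gene lengths are not always those of the length column. The authors' group means of scaled counts (a signal, deposited beside the counts) and of FPKM were not used, nor were their fold changes and p-values from DESeq.

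The main test was the one of edgeR 4.0.16 in R 4.3.3 (filterByExpr, TMM, robust quasi-likelihood test, all 12 libraries, no covariate), with Benjamini-Hochberg adjustment over the 17155 rows tested, of which 4062 have no gene name. Unless another test is named, every adjusted p is from this fit and every level in CPM is TMM-scaled. The levels in CPM per kilobase, from the length column, are the exception and are scaled to library totals without TMM. Ratios of FPKM were compared in Python 3.11.15 with scipy 1.17.1. The members and lists were chosen with earlier results of these data known. Named genes were the 10 members, their paralogs, Sdhaf4, wider-list genes called at 0.05 that moved by over 0.5 on the log2 scale, and the 3 nearest in pattern to Atp2a2, Ryr2, Pln and Sln. Tested on simulated counts for 16931 rows, the fit recovered 198 of 200 changes of 1.5 on the log2 scale with 4 false calls. The changed rows were few and had at least 50 counts each. Every member moved by less than 1.5 (-1.08 to 1.24), and recovery of changes of that size was not tested. The closest replicates had a chi-square of 6.99 per degree of freedom, and none was counted as a duplicate. Alternatives were DESeq2 1.42.0, limma-voom and limma 3.58.1 on log2 of FPKM plus 1, other scalings, no filter on low counts, the stricter threshold, a block on the replicate number, and each library left out. Levels per length from the length column, and the spread without KO replicate 3, were added after seeing the data.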

Additional observations from a re-analysis of the deposited data

Results flagged for a closer look

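Single libraries set far from the rest of their group were looked for in 74 groups of 6 values, the CPM of the named genes and the ratios. They were found in 10 groups, where chance gives about 3.7 (1 group in 20), and 7 of the 10 were KO replicate 3. The groups share the same libraries and the ratios reuse the values of the genes. The groups are therefore not independent, and the 3.7 is only a rough guide. That library was high for Atp2a2 (7965 CPM, the others 4521 to 5640), Ryr2 (1690.1 CPM, the others 862 to 1039), Casq2 (1437 CPM, the others 846 to 1015) and Hrc (548 CPM, the others 325 to 371). It was also high for Cacna2d1 (189.6 CPM, the others 148 to 159) and Ppp1r3a (188 CPM, the others 89.2 to 124), and low for the ratio of Cacna1c to Ryr2 (0.469, the others 0.686 to 0.741). Why this library stands apart was not tested.

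Outside that library, Atp2a1 stood at 2.79 CPM in WT replicate 1 (the others 0.323 to 0.913), which is also the library with 6 of the 7 WT reads of Sln. Sdhaf4 was at 2.73 CPM in KO replicate 1, against 2.25 to 2.41 CPM in the other KO libraries. The ratio of Slc8a1 to Atp2a2 was 0.0104 in WT replicate 6, against 0.00789 to 0.00842 in the other WT libraries.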

How the results depend on the processing

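The directions of the members' changes were the same under all alternatives tried, and the calls of Atp2a2, Pln, Ryr2, Casq1, Casq2, Hrc and Slc8a1 were kept at an adjusted p under 0.05. The stricter threshold left 1 member higher and 1 lower, and 4 higher and 1 lower of the 50 wider-list genes, where 5.36% and 4.87% of all rows passed. With 1 library left out, 2 members were higher and 5 to 7 lower, and in the wider lists 23 to 28 were higher and 6 to 10 lower. Scaling to the cardiomyocyte markers moved the median of all rows to 0.07 (4364 higher, 3075 lower) and left 2 members higher and 5 lower, without Trdn and Cacna1c. The same-numbered libraries did not deviate together (correlations -0.16 to 0.02, and 0 of the 6 KO libraries correlated best with its own number), so the numbers were not taken to pair samples. A replicate block left 2 members higher and 5 lower (Trdn adjusted p = 0.0542, Cacna1c adjusted p = 0.0652), 25 higher and 6 lower in the wider lists, and the log2 difference of the Cacna1c to Ryr2 ratio at 0.37 with an adjusted p of 0.0750 from an exact sign-flip permutation. The difference in the Pln to Atp2a2 ratio ranged from 0.14 to 0.25 with 1 library left out. Cacna1d, which was not called, changed sign without KO replicate 3 (-0.0071, adjusted p = 0.973) and ranged up to 0.15 with another library left out. The call of Cacna1h was lost with cardiomyocyte scaling, no filter, the block and limma-voom (adjusted p = 0.0616 to 0.0661), and that of Atp2a1 with the block, limma-voom and limma on FPKM (0.0789 to 0.129). The cause of these shifts was not tested. Fold changes are relative to the total of each library, transcript levels are not protein or calcium flux, values under 1 CPM rest on few reads, and 6 samples a group at 1 age give no time course.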
